A study of Mus musculus with 18 samples.

Results

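The Toll-like receptor (TLR) genes Tlr1, Tlr2, Tlr3, Tlr4, Tlr6, Tlr7, Tlr8, Tlr9 and Tlr13 and the coreceptor gene Cd14 were followed across 18 RNA-seq libraries of mouse peritoneal macrophages. These 10 genes were taken by symbol from a table of 21831 genes. PXR, encoded by Nr1i2, is a nuclear receptor that binds foreign and endogenous steroids, and pregnenolone 16alpha-carbonitrile (PCN) is its standard ligand in mice. The groups were dMye_PCN (n = 6) and dMye_DMSO (n = 6), from mice of genotype PXRdeltaMye, which lack PXR in myeloid cells, and FF_PCN (n = 3) and FF_DMSO (n = 3), from mice of genotype PXRF/F, which carry floxed PXR alleles. All mice were C57BL/6 and 6 weeks old, and had received 1 mL of 3% thioglycollate into the peritoneum 3 days before harvest. After 4 h of attachment the cells were cultured for 12 h with 20 µM PCN or with the solvent DMSO. The labels name no Cre driver, and leave unsaid whether replicate libraries stand for different animals or dishes, so p-values measure the spread between libraries, which may be technical.

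TLRs are membrane receptors that recognise conserved molecules of microbes. TLR2 with TLR1 or TLR6 binds bacterial lipopeptides at the cell surface, and TLR4 binds lipopolysaccharide there with MD-2 and CD14, a lipid-anchored protein that delivers the ligand. TLR3, TLR7, TLR8, TLR9 and TLR13 sit in endosomes and recognise nucleic acids: TLR3 long RNA duplexes, TLR7 RNA strands, TLR9 CpG-rich DNA and TLR13, which mice have and humans lack, bacterial ribosomal RNA. TLR8 recognises RNA in human cells, and its ligands in the mouse are less clear. UNC93B1 carries the endosomal receptors from the endoplasmic reticulum. Most TLRs signal through the adaptor MyD88 to IRAK kinases, TRAF6 and NF-kB. TLR3 signals instead, and TLR4 in addition, through TRIF (Ticam1) to TBK1 and IRF3.

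Library totals ran from 21993687 to 30228032 expected counts. Levels are given as CPM, counts per 1000000 counts of the library total, with SD over libraries. Changes are log2 fold changes with their standard error (SE) from edgeR's quasi-likelihood test, and a gene is called changed at a Benjamini-Hochberg adjusted p under 0.05 over the 13411 genes tested. All 8 macrophage markers had a mean of at least 1 CPM in every group, with sums from 6082 to 10705 CPM over the libraries. The deleted gene could not be used to check genotype, since Nr1i2 had 5 counts over the 12 dMye libraries and 3 over the 6 FF libraries. The 4 Y-linked genes listed summed to between 0.457 and 1.48 CPM in dMye libraries and to between 113 and 137 CPM in FF libraries. Sex thus followed genotype, and 3 of the 10 members, Tlr7, Tlr8 and Tlr13, lie on the X chromosome, so sex and PXR deletion cannot be told apart in any dMye to FF comparison. Markers of mesothelial cells and fibroblasts were higher in dMye for 8 of 8 genes under either agent (sums of 590 to 770 CPM in dMye libraries and 140.3 to 177 in FF libraries). Among replicates, dMye_DMSO 5 and 6 lay furthest apart (chi-square per gene of 43.7, against 3.75 for the closest pair), so results that use dMye_DMSO were also computed without both. By this measure dMye_DMSO 5 lay 20.8 to 37.4 from dMye_DMSO 1 to 4, whereas dMye_DMSO 6 lay 6.49 to 24.0 from them. Each library was also left out alone. In bulk libraries, fewer cells of a type and less RNA per cell cannot be told apart.

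Per kilobase of exon, Tlr13 was the most abundant member in every group and Tlr3 the least. Tlr13 averaged 45.5 ± 2.42 CPM per kb in dMye_PCN, 49.2 ± 2.06 in dMye_DMSO, 43.7 ± 1.57 in FF_PCN and 54.7 ± 1.67 in FF_DMSO. Cd14 came next, at 31.0 ± 2.40 CPM per kb in dMye_PCN, 29.9 ± 2.02 in dMye_DMSO, 25.1 ± 0.750 in FF_PCN and 22.9 ± 1.25 in FF_DMSO, followed by Tlr4, between 13.4 and 14.6. Below these the order depended on the group. In dMye_PCN, Tlr2 (9.23 ± 0.426 CPM per kb) overlapped Tlr7 (9.17 ± 0.830), whereas in FF_DMSO Tlr7 stood at 12.2 ± 0.959 and Tlr2 at 5.77 ± 0.415, and this Tlr2 level overlapped Tlr8 (6.11 ± 0.763). Tlr8 stood above Tlr1 without overlap in both DMSO groups and overlapped it in both PCN groups. Tlr9 ranked above Tlr3 everywhere, with 1.31 ± 0.355 CPM per kb in dMye_PCN, 1.29 ± 0.158 in dMye_DMSO, 1.47 ± 0.368 in FF_PCN and 1.78 ± 0.195 in FF_DMSO. Tlr3 had 0.493 ± 0.110 CPM per kb in dMye_PCN, 0.560 ± 0.0967 in dMye_DMSO, 0.222 ± 0.0527 in FF_PCN and 0.453 ± 0.0714 in FF_DMSO. Of the remaining mouse TLR genes, Tlr11 and Tlr12 had at most 10 and 5 counts in a library and were not tested, and Tlr5, the flagellin receptor gene, had 11 to 47.

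**Figure D1:**
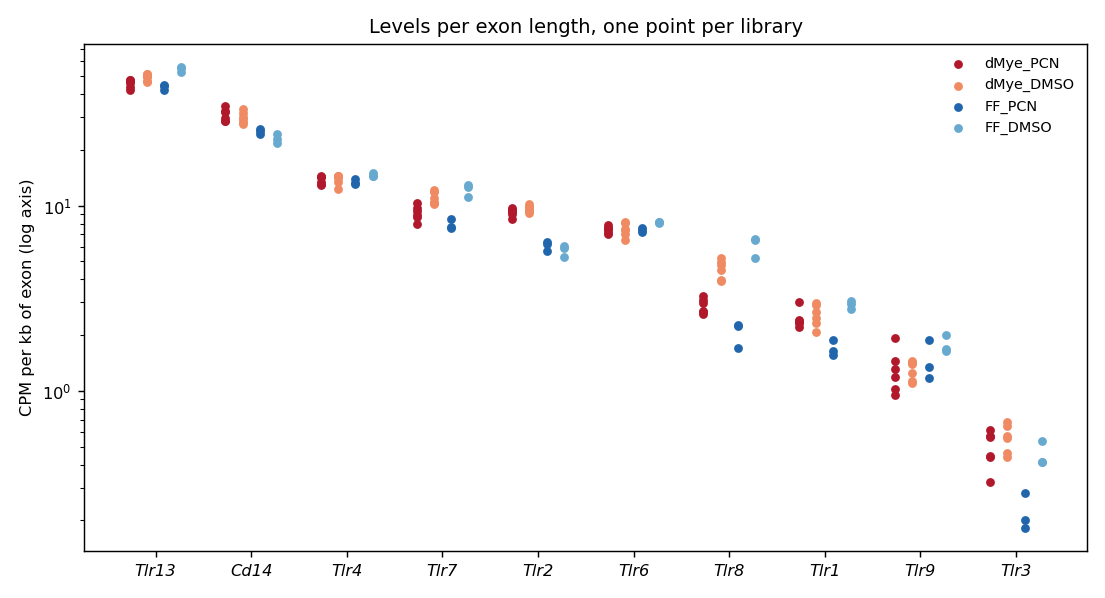
CPM per kilobase of exon on a log axis for the 10 genes, with 1 point per library and the 4 groups side by side. Tlr13 is highest and Tlr3 lowest in every group. Tlr1, Tlr3, Tlr4, Tlr6, Tlr7, Tlr8 and Tlr13 each have their lowest group mean in FF_PCN.

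PCN lowered 4 of the 5 endosomal receptor genes in FF macrophages, with Tlr8 reduced the most. Of the 10 members, 5 fell (Tlr8, Tlr3, Tlr1, Tlr7 and Tlr13) and the other 5 were not called. Over all genes tested, 6.98% were called lower in this comparison, 6.81% higher and 13.8% in either direction. The members' median log2 fold change was -0.28, beside 0.01 over all tested genes. In 8 of 10 members the 3 FF_PCN libraries did not overlap the 3 FF_DMSO libraries, which held for 33.4% of all tested genes.

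Tlr8 fell the most of the members. It had 8.14, 6.13 and 8.01 CPM in FF_PCN libraries, against 23.4, 18.8 and 23.5 CPM in FF_DMSO libraries. The highest FF_PCN library lay well below the lowest FF_DMSO library, and the level fell to 0.344 of that with DMSO (log2 fold change -1.54, SE 0.13, adjusted p = 9.23e-08). By p-value Tlr8 ranked 15 among the 13411 genes. Tlr8 spans 167242696 to 167264329 on the minus strand of chromosome X in GRCm38. No 50-base stretch of its annotated transcripts occurs in a transcript of another gene, yet its deposited counts were not whole in 15 of 18 libraries. Counts of Tlr4 were likewise not whole in 15 of 18 libraries, with 0.02% of its 50-base stretches found in another gene.

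Tlr7, also on chromosome X (167304929 to 167330558, minus strand), also fell. Its levels were 34.7, 31.1 and 31.4 CPM in FF_PCN and 52.5, 45.3 and 51.6 CPM in FF_DMSO, without overlap (log2 fold change -0.60, SE 0.09, adjusted p = 6.34e-05). Tlr13 (chromosome X, 106143204 to 106160493, plus strand) had 180.3, 193 and 190.5 CPM in FF_PCN and 241, 227 and 239 CPM in FF_DMSO. Its fall was the smallest of those called, to 0.811 of the DMSO level (log2 -0.30, SE 0.06, adjusted p = 0.00124). Tlr3 (chromosome 8, 45395665 to 45411080, minus strand) had few reads, with 1.05, 1.47 and 0.950 CPM in FF_PCN (23 to 37 counts) and 2.14, 2.79 and 2.15 CPM in FF_DMSO (53 to 76 counts). The groups did not overlap and Tlr3 fell to 0.499 of its DMSO level (log2 -1.0, SE 0.26, adjusted p = 0.0112), but without FF_DMSO 2 or FF_PCN 3 the adjusted p was 0.057 and 0.0563. An antisense gene, Gm45542, overlaps Tlr3 exons, and reads of both cannot be told apart without known use of strand. Tlr9 (chromosome 9, 106222598 to 106226883, plus strand) was at 4.08, 6.54 and 4.71 CPM in FF_PCN and at 6.95, 5.69 and 5.89 CPM in FF_DMSO. These groups overlapped and the difference was not called (log2 -0.25, SE 0.21, adjusted p = 0.516).

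The promoters of Tlr8 and Tlr13, members that fell in FF, are shown with that of Tlr2, which was not called under PCN. Each window runs 250 bases before to 50 bases after the start site (RefSeq, GRCm38.p6), 5′ to 3′ on the gene's strand, with capitals on the ETS core GAGGAA, the type of motif bound by the macrophage factor PU.1, on either strand.
Tlr8 promoter, chrX:167264280-167264579, minus strand: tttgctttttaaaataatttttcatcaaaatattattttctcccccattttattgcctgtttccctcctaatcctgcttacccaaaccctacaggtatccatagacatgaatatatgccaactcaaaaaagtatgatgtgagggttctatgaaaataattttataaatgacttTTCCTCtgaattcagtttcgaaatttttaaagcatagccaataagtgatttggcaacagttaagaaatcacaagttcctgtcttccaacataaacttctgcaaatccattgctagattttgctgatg
Tlr13 promoter, chrX:106143025-106143324, plus strand: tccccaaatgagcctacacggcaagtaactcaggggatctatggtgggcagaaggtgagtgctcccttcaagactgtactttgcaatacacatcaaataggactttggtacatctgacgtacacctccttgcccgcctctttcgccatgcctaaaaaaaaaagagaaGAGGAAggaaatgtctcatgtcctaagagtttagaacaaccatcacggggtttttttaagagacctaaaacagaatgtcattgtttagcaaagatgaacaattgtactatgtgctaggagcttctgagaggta
Tlr2 promoter, chr3:83841559-83841858, minus strand: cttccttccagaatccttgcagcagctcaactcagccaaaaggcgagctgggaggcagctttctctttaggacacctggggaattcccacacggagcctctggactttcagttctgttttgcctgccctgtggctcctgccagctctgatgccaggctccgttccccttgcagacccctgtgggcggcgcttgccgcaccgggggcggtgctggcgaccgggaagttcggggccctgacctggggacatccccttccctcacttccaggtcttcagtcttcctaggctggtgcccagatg
The table held a promoter for 7 of the 10 members (9 windows). GAGGAA occurred in 4 of these 7, at 77 bases before the start in Tlr8, 83 before it in Tlr13, 23 before it in 1 of the Tlr1 windows and at 2 places in Tlr9. Of the members that fell in FF, Tlr8, Tlr13 and Tlr1 thus had a match, Tlr3 had none and Tlr7 had no window. Of those not called in FF, Tlr9 had a match, and Tlr2 and Tlr6 had none. GAGGAA occurred in 28.28% of 32851 mouse promoter windows of the same length. The interferon-stimulated response element core (GAAA, any 2 bases, GAAA) occurred in 1 member, Tlr6 (3.44% of all windows), and the NF-kB site (GGG, any 2 bases, TTTCC) in 1, Tlr3 (1.63%). The AP-1 site TGANTCA matched in Tlr9 alone (7.81%), the C/EBP site TTGCNNAA in 4 members, Tlr3, Tlr6, Tlr8 and Tlr13 (10.8%), and the nuclear receptor half-site AGTTCA in Tlr1 alone (13.99%). All motifs were searched on both strands. The percentages count windows, whereas a member was counted once if any of its windows matched. Tlr1 and Tlr6 had 2 windows each, so the 2 measures are not fully alike.

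Among the surface receptor genes of FF macrophages, Tlr1 fell, while Tlr2, Tlr4, Tlr6 and Cd14 were not called. Tlr1 (chromosome 5, 64924679 to 64933563, minus strand) was at 5.53, 5.20 and 6.31 CPM in FF_PCN and at 9.27, 10.3 and 9.80 CPM in FF_DMSO, without overlap (log2 -0.76, SE 0.14, adjusted p = 0.000733). Tlr6 (chromosome 5, 64952031 to 64960097, minus strand) had 27.0, 28.2 and 27.4 CPM in FF_PCN and 30.5, 30.5 and 29.9 CPM in FF_DMSO (log2 -0.12, SE 0.07, adjusted p = 0.337).

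Tlr1 and Tlr6 are neighbouring copies, and part of their coding sequence is identical. The longest shared run, 229 bases, is shown because reads within it match both genes. It covers coding bases 1468 to 1696 of a Tlr1 transcript with 2388 coding bases (chr5:64925537-64925765, minus strand) and 1507 to 1735 of a Tlr6 transcript with 2421 (chr5:64953828-64954056, minus strand), from GENCODE transcripts of GRCm38.
Tlr1 and Tlr6 shared coding run: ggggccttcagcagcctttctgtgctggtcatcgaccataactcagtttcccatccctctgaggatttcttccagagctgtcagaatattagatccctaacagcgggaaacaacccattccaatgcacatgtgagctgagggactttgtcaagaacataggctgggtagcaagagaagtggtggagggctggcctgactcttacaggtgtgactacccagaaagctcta
Of the distinct 50-base stretches of the annotated transcripts, 13.63% of those of Tlr1 also occurred in Tlr6, and 12.26% of those of Tlr6 in Tlr1. Both genes had counts that were not whole in 18 of 18 libraries. Within groups the residual log2 levels of Tlr1 and Tlr6 had a Pearson r of -0.61 over 18 libraries, given as a description of values that share reads and library scaling. With both genes summed to 1 feature, the level was 33.2 ± 0.586 CPM in FF_PCN and 40.1 ± 0.612 CPM in FF_DMSO (log2 -0.25, SE 0.06, adjusted p = 0.00597), so the summed level fell too.

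Tlr2 (chromosome 3, 83836272 to 83841767, minus strand) had 19.1, 18.6 and 17.1 CPM in FF_PCN and 16.0, 17.9 and 18.3 CPM in FF_DMSO, and these overlapped (log2 0.09, SE 0.08, adjusted p = 0.483). The lipopolysaccharide receptor gene Tlr4 (chromosome 4, 66827584 to 66930284, plus strand) was at 73.1, 73.7 and 76.9 CPM in FF_PCN and 79.9, 80.2 and 83.3 CPM in FF_DMSO (log2 -0.10, SE 0.06, adjusted p = 0.316). Cd14 (chromosome 18, 36725067 to 36726798, minus strand) was at 43.6, 42.1 and 44.6 CPM in FF_PCN and 39.5, 42.0 and 37.6 CPM in FF_DMSO (log2 0.15, SE 0.09, adjusted p = 0.284). For Tlr4, Tlr6 and Cd14 the FF_PCN and FF_DMSO libraries did not overlap, yet none was called. Their 95% intervals on the log2 scale were -0.22 to 0.02 for Tlr4, -0.27 to 0.03 for Tlr6, -0.03 to 0.33 for Cd14 and -0.06 to 0.25 for Tlr2.

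**Figure D2:**
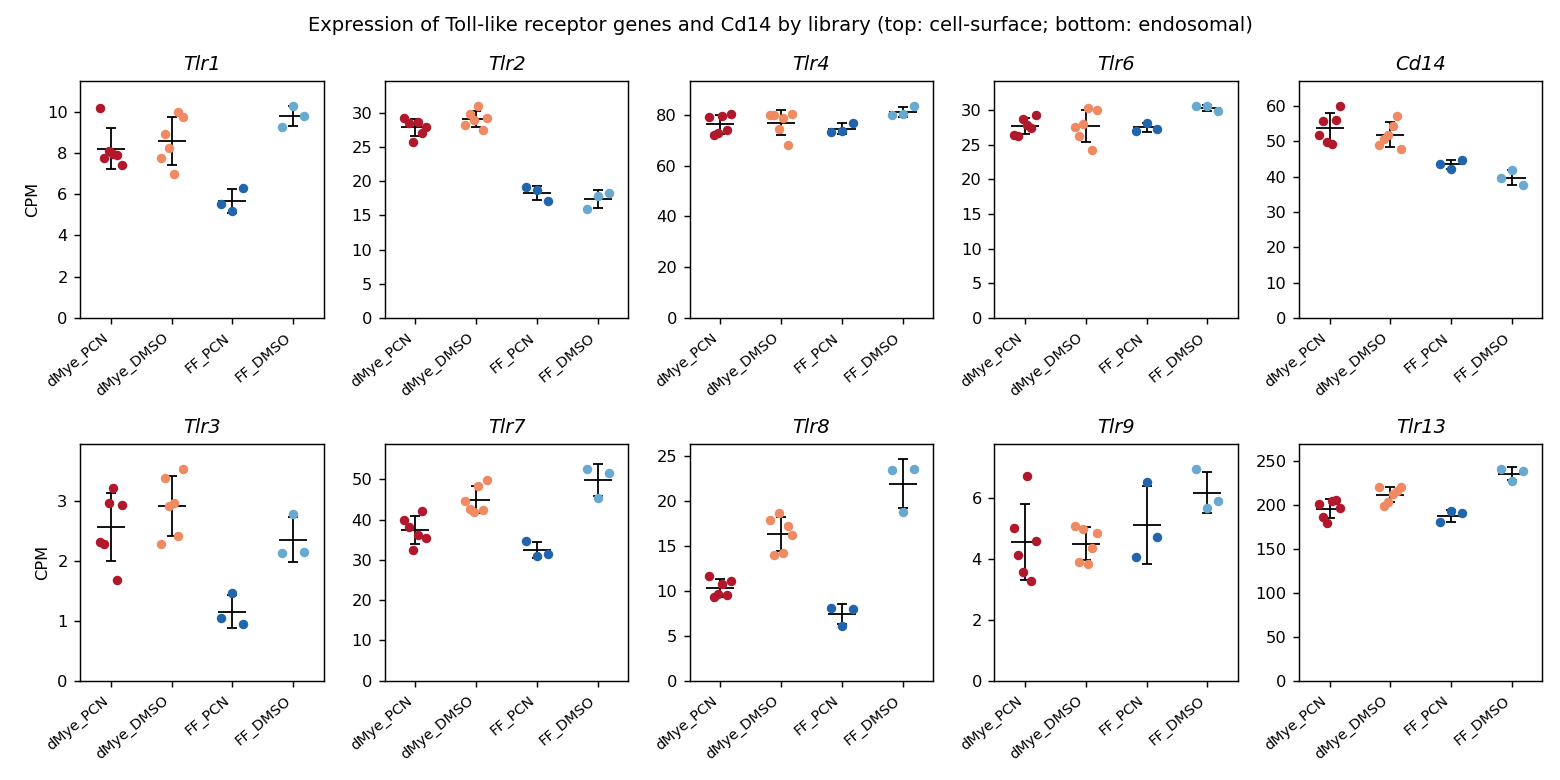
CPM of the 10 genes, 1 point per library, with group means and SD as black bars, and each axis starting at 0. Tlr8 lies between 6.13 and 8.14 CPM in FF_PCN and between 18.8 and 23.5 CPM in FF_DMSO, while Tlr2 and Cd14 separate dMye from FF.

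Other cell markers moved with these genes in FF. The 8 B cell markers summed to 9.08 to 13.2 CPM in FF_PCN and 20.7 to 25.8 CPM in FF_DMSO, with 4 of 8 called lower, and B cells also express Tlr1, Tlr7 and Tlr9. Macrophage markers summed to 7072 to 7562 CPM in FF_PCN and 9989 to 10705 CPM in FF_DMSO, with 6 of 8 lower and 1 higher. Lyz2 made up most of that sum, at a mean of 4392 CPM in FF_PCN and 7141 CPM in FF_DMSO. Cd68 averaged 2475 CPM in FF_PCN and 2545 CPM in FF_DMSO and was not called. Neutrophil markers summed to 128 to 138 CPM in FF_PCN and 168 to 171 CPM in FF_DMSO, with 2 of 7 tested lower. Those 2, Csf3r (means of 98.5 CPM in FF_PCN and 122 CPM in FF_DMSO) and Mmp8 (18.3 and 30.1 CPM), made up most of the sum. The others tested were not called, S100a8, S100a9 and Lcn2 with lower means in FF_PCN and Mmp9 and Cxcr2 with higher means. Mesothelial and fibroblast markers summed to 140.3 to 156 CPM in FF_PCN and 174 to 177 CPM in FF_DMSO, with 1 of 8 lower, Wt1, at a mean of 2.10 CPM in FF_PCN and 3.37 CPM in FF_DMSO. The part of these 4 marker lists in the receptor changes was not tested. Dendritic cell markers summed to 3.03 to 4.11 CPM in FF_PCN and 3.67 to 4.69 CPM in FF_DMSO, and T and NK cell markers to 3.94 to 4.99 CPM in FF_PCN and 3.83 to 4.84 CPM in FF_DMSO. Mast cell and eosinophil markers summed to 3.46 to 6.42 CPM in FF_PCN and 6.35 to 7.79 CPM in FF_DMSO, with Epx at 0 in all 6 libraries.

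In dMye macrophages PCN lowered Tlr8 and Tlr7, and the other 8 members were not called. Over all genes tested, 1.14% were called lower, 0.94% higher and 2.08% either way. The members' median log2 fold change was -0.06, beside -0.01 over all tested genes. Tlr8 ranged from 9.33 to 11.7 CPM in dMye_PCN (median 10.2) and from 14.0 to 18.6 CPM in dMye_DMSO (median 16.7). All 6 PCN libraries lay below all 6 DMSO libraries, which held in either direction for 2.33% of all tested genes. The level fell to 0.630 of that with DMSO (log2 -0.67, SE 0.09, adjusted p = 0.00032), and by p-value Tlr8 ranked 14 of all tested genes.

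Tlr7 ranged from 32.6 to 42.2 CPM in dMye_PCN (median 37.2) and from 41.9 to 49.8 CPM in dMye_DMSO (median 43.7), so that the groups overlapped at their edges. It fell by 0.26 on the log2 scale (SE 0.06, adjusted p = 0.0267). That call depended on the libraries used: adjusted p lay between 0.052 and 0.0808 in each fit without 1 of dMye_DMSO 1, 4 or 6 or dMye_PCN 3, 4 or 6. It was 0.0609 when the dMye libraries were fitted alone and 0.0712 without dMye_DMSO 5 and 6. Tlr13 was at 196 ± 10.4 CPM in dMye_PCN and 212 ± 8.87 CPM in dMye_DMSO (log2 -0.12, SE 0.04, adjusted p = 0.176). Tlr3 was at 2.57 ± 0.575 CPM in dMye_PCN and 2.91 ± 0.504 CPM in dMye_DMSO (adjusted p = 0.644), and Tlr9 at 4.56 ± 1.24 CPM in dMye_PCN and 4.50 ± 0.549 CPM in dMye_DMSO (adjusted p = 0.977).

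The surface receptor genes of dMye macrophages were not called under PCN. Tlr1 was at 8.21 ± 0.983 CPM in dMye_PCN and 8.59 ± 1.17 CPM in dMye_DMSO (log2 -0.06, 95% interval -0.27 to 0.14). Tlr6 was at 27.7 ± 1.17 CPM in dMye_PCN and 27.7 ± 2.31 CPM in dMye_DMSO (interval -0.11 to 0.10), and Tlr4 at 76.2 ± 3.77 CPM in dMye_PCN and 76.9 ± 4.80 CPM in dMye_DMSO (interval -0.10 to 0.07). Tlr2 was at 27.8 ± 1.28 CPM in dMye_PCN and 29.1 ± 1.21 CPM in dMye_DMSO (interval -0.17 to 0.04), and Cd14 at 53.7 ± 4.15 CPM in dMye_PCN and 51.8 ± 3.49 CPM in dMye_DMSO (interval -0.08 to 0.17). B cell markers summed to 6.52 to 9.84 CPM in dMye_PCN and 6.29 to 8.75 CPM in dMye_DMSO. Macrophage markers summed to 6082 to 6628 CPM in dMye_PCN and 6601 to 8262 CPM in dMye_DMSO, with 1 of 8 lower, Csf1r. Lyz2, the largest part of this sum, averaged 3273 CPM in dMye_PCN and 4060 CPM in dMye_DMSO and was not called.

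The fall of Tlr8 under PCN was smaller in dMye than in FF. The log2 fold changes were -0.67 in dMye and -1.54 in FF, and their difference was 0.87 (dMye minus FF, SE 0.16, 95% interval 0.54 to 1.21, adjusted p = 0.00859). Of the 10 members, 2 passed the test of this difference, Tlr8 and Tlr1, both towards a smaller fall in dMye, while 0.746% of all tested genes were called in that direction, 0.671% in the other and 1.42% in either. For Tlr1 the difference was 0.70 (SE 0.17, adjusted p = 0.0432), with log2 fold changes of -0.06 in dMye and -0.76 in FF. In 12 of the 18 fits that left out 1 library Tlr1 was no longer called (adjusted p between 0.0514 and 0.112), the exceptions being those without FF_PCN 3, dMye_DMSO 4, 5 or 6, or dMye_PCN 5 or 6. Tlr1 and Tlr6 summed gave a difference of 0.23 (SE 0.07, adjusted p = 0.123). For the remaining members that fell in FF, the difference was 0.82 for Tlr3 (SE 0.31, adjusted p = 0.225), 0.33 for Tlr7 (SE 0.11, adjusted p = 0.137) and 0.19 for Tlr13 (SE 0.07, adjusted p = 0.241). These did not pass, and their 95% intervals were 0.17 to 1.46, 0.11 to 0.56 and 0.04 to 0.34. For Tlr2, Tlr4, Tlr6, Tlr9 and Cd14 the intervals of the difference included 0.

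**Figure D3:**
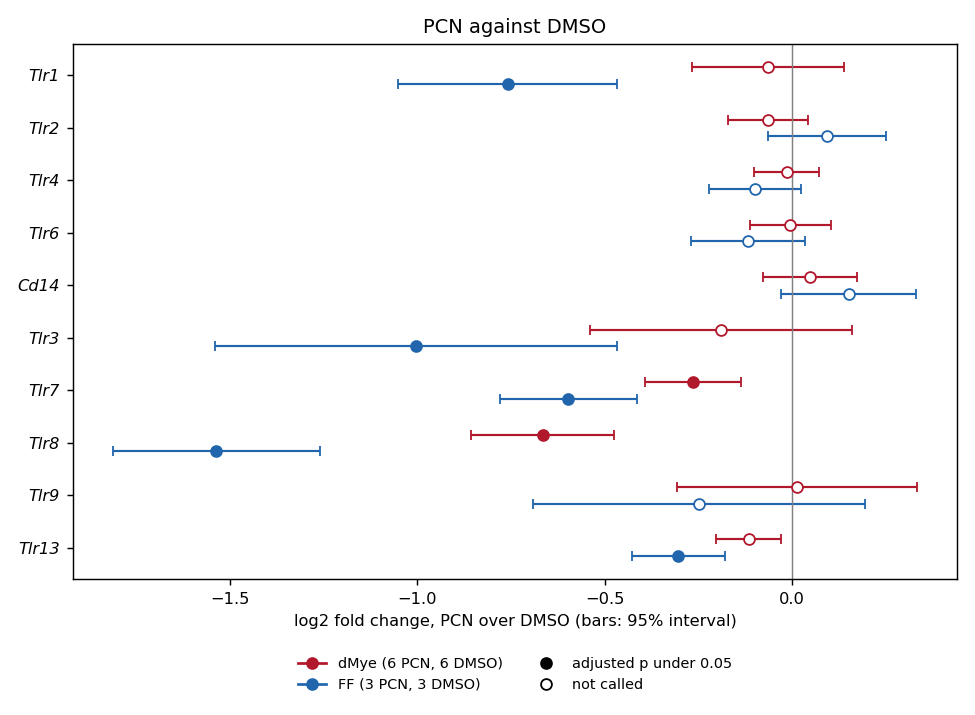
Log2 fold change of PCN over DMSO for the 10 genes with 95% intervals, dMye above FF for each gene, filled where the adjusted p was under 0.05. Tlr8 falls in both genotypes, at -0.67 in dMye and -1.54 in FF, and the intervals of Tlr2, Tlr4, Tlr6, Tlr9 and Cd14 cross 0 in both.

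Genotype separated Tlr2 and Cd14 under either agent. Tlr2 ranged from 27.4 to 30.9 CPM in dMye_DMSO (median 29.1), against 16.0, 17.9 and 18.3 CPM in FF_DMSO. Every dMye_DMSO library lay above every FF_DMSO library, by 1.64-fold in the fit (log2 0.72, SE 0.07, adjusted p = 2.58e-08). Under PCN, Tlr2 ranged from 25.7 to 29.2 CPM in dMye_PCN (median 28.2), against 19.1, 18.6 and 17.1 CPM in FF_PCN (log2 0.56, SE 0.07, adjusted p = 9.49e-07). Cd14 ranged from 47.9 to 57.2 CPM in dMye_DMSO (median 51.2), against 39.5, 42.0 and 37.6 CPM in FF_DMSO (log2 0.36, SE 0.08, adjusted p = 0.00123). Under PCN it ranged from 49.3 to 59.8 CPM in dMye_PCN (median 53.6), against 43.6, 42.1 and 44.6 CPM in FF_PCN (log2 0.26, SE 0.08, adjusted p = 0.0137), but without FF_PCN 2 the adjusted p was 0.0645. The mesothelial and fibroblast markers given above moved with these genes and their part was not tested. Fibroblasts and mesothelial cells can express Tlr2, Tlr3, Tlr4 and Cd14.

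Under DMSO, 2 members were higher and 2 lower in dMye, where 13.9% of all tested genes were called higher, 7.84% lower and 21.8% either way. In 5 of 10 members the groups did not overlap, which held for 23.6% of all tested genes. Both members called lower were X-linked. Tlr8 was at 16.4 ± 1.91 CPM in dMye_DMSO and 21.9 ± 2.74 CPM in FF_DMSO (log2 -0.45, SE 0.11, adjusted p = 0.00385), and Tlr13 at 212 ± 8.87 CPM in dMye_DMSO and 236 ± 7.19 CPM in FF_DMSO (log2 -0.18, SE 0.05, adjusted p = 0.0143, but 0.0616 with upper-quartile scaling). Neither gene's groups overlapped. The third X-linked member, Tlr7, was at 45.0 ± 3.39 CPM in dMye_DMSO and 49.8 ± 3.91 CPM in FF_DMSO (log2 -0.17, SE 0.07, adjusted p = 0.103). Tlr9 ranged from 3.83 to 5.07 CPM in dMye_DMSO and from 5.69 to 6.95 CPM in FF_DMSO, and although the groups did not overlap it was not called by edgeR over all libraries (log2 -0.48, SE 0.18, adjusted p = 0.064). Tlr9 was called lower by DESeq2 (adjusted p = 0.0392), by limma-voom (adjusted p = 0.0478), with the DMSO groups fitted alone (adjusted p = 0.0209) and without dMye_DMSO 1 (adjusted p = 0.0494). Markers of B cells, which express Tlr9, summed to 6.29 to 8.75 CPM in dMye_DMSO and 20.7 to 25.8 CPM in FF_DMSO, with 7 of 8 lower, and T and NK cell markers to 1.39 to 2.16 CPM in dMye_DMSO and 3.83 to 4.84 CPM in FF_DMSO, with 3 of 5 tested lower. Neutrophil markers summed to 118 to 137 CPM in dMye_DMSO and 168 to 171 CPM in FF_DMSO, with 3 of 7 tested lower and 1 higher. Csf3r (means of 95.5 CPM in dMye_DMSO and 122 CPM in FF_DMSO) and Mmp8 (12.0 and 30.1 CPM) made up most of this sum. Macrophage markers summed to 6601 to 8262 CPM in dMye_DMSO and 9989 to 10705 CPM in FF_DMSO, with 2 of 8 higher and 2 lower. The largest part of the macrophage sum, Lyz2, averaged 4060 CPM in dMye_DMSO and 7141 CPM in FF_DMSO. The part of these marker lists was not tested. Tlr1, Tlr3, Tlr4 and Tlr6 were not called under DMSO, with log2 values of -0.21, 0.28, -0.10 and -0.15. Without dMye_DMSO 5 and 6, Tlr1 was called lower in dMye (log2 -0.33, adjusted p = 0.0441), and DESeq2 called Tlr6 lower (adjusted p = 0.0366). With only 1 library left out, the edgeR adjusted p of Tlr1 was 0.0796 to 0.433, so it was not called. Tlr1 and Tlr6 summed were at 36.3 ± 1.99 CPM in dMye_DMSO and 40.1 ± 0.612 CPM in FF_DMSO, and lower in dMye (log2 -0.17, SE 0.05, adjusted p = 0.0199). Leaving out dMye_DMSO 4 raised the count of lower members to 4, with Tlr6 (adjusted p = 0.0216) and Tlr7 (adjusted p = 0.0459) added.

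Under PCN, 5 members were higher in dMye, where 16.2% of all tested genes were called higher, 11.4% lower and 27.6% either way. These were Tlr1, Tlr2, Tlr3, Tlr8 and Cd14. In 5 of the 10 members, the same 5, the groups did not overlap between genotypes, which held for 26.7% of all tested genes. Tlr3 was at 2.57 ± 0.575 CPM in dMye_PCN and 1.16 ± 0.274 CPM in FF_PCN (log2 1.09, SE 0.23, adjusted p = 0.00109), Tlr1 at 8.21 ± 0.983 CPM in dMye_PCN and 5.68 ± 0.568 CPM in FF_PCN (log2 0.48, SE 0.13, adjusted p = 0.0057), and Tlr8 at 10.3 ± 0.958 CPM in dMye_PCN and 7.42 ± 1.13 CPM in FF_PCN (log2 0.43, SE 0.12, adjusted p = 0.0106). Tlr8 was thus lower in dMye than in FF with DMSO and higher with PCN. Without FF_PCN 2, Tlr8 (log2 0.30, adjusted p = 0.117) and Cd14 (adjusted p = 0.0645) were no longer called higher, which left 3 members. The dMye and FF comparisons with PCN share their libraries with the PCN comparisons above, so these values restate the same measurements. Tlr7 (log2 0.16, adjusted p = 0.135), Tlr13 (0.01, adjusted p = 0.917), Tlr4 (-0.02, adjusted p = 0.84), Tlr6 (-0.04, adjusted p = 0.686) and Tlr9 (-0.22, adjusted p = 0.424) were not called. Of the macrophage markers, 6 of 8 were higher and 1 lower in dMye under PCN (median log2 0.23), while their sum was 6082 to 6628 CPM in dMye_PCN and 7072 to 7562 CPM in FF_PCN. Lyz2, the largest part of this sum, averaged 3273 CPM in dMye_PCN and 4392 CPM in FF_PCN. B cell markers were lower for 3 of 8 genes (sums of 6.52 to 9.84 CPM in dMye_PCN and 9.08 to 13.2 CPM in FF_PCN), and T and NK cell markers for 2 of 5 tested (1.71 to 3.02 CPM in dMye_PCN and 3.94 to 4.99 CPM in FF_PCN). Their part was not tested. Outside the 10 genes, Tlr5 was higher in dMye_PCN (1.24 ± 0.352 CPM) than in FF_PCN (0.571 ± 0.132 CPM; log2 1.05, SE 0.32, adjusted p = 0.016).

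**Figure D4:**
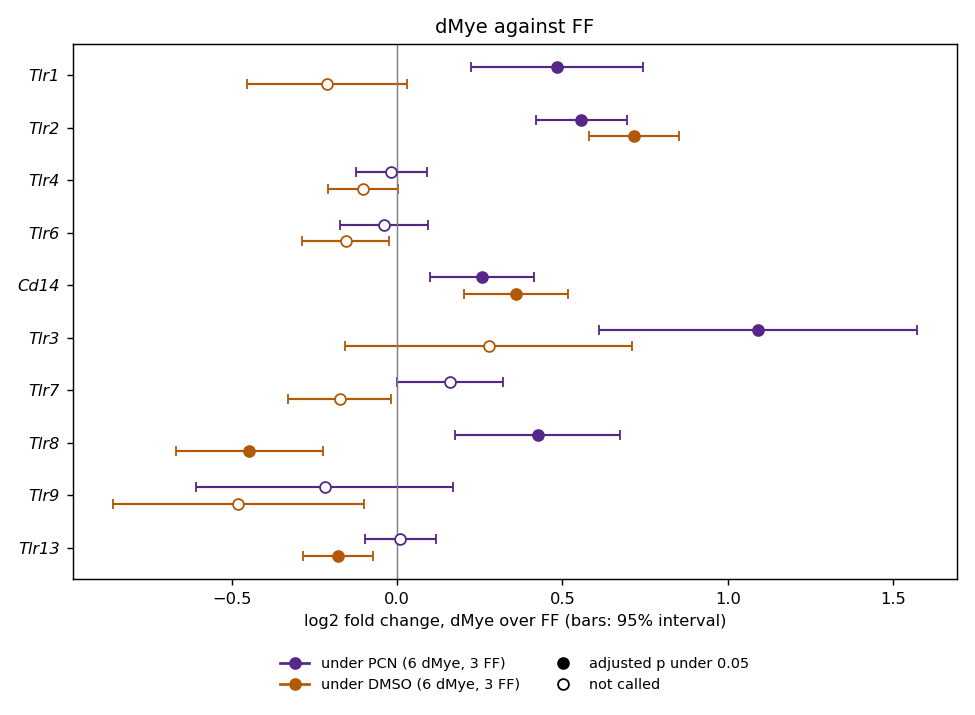
Log2 fold change of dMye over FF for the 10 genes with 95% intervals, under PCN above and under DMSO below for each gene, filled where the adjusted p was under 0.05. Tlr2 and Cd14 are higher in dMye under both agents, and Tlr8 is at 0.43 under PCN and -0.45 under DMSO.

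The genes whose levels followed a member most closely were found by Pearson r of log2 CPM over the 18 libraries, which largely reflects the 4 group means and is a description. Tlr8 was most like Nfam1 (r = 0.95), which encodes a protein with an activation motif. Next came Mpeg1 (0.95), the pore-forming protein perforin-2, and Lsp1 (0.95), an actin-binding leukocyte protein. Mpeg1 was also among the genes nearest to Tlr1 (0.83), with Lrmp (0.84). Tlr3 was nearest to Mertk (0.92), a receptor for apoptotic cells, and Siglec1 (0.89), and Tlr13 to the lysosomal lipase gene Lipa (0.91), Cd84 (0.90) and Selplg (0.90). Tlr2 was nearest to Dbn1, Tmem98 and Pmepa1 (all 0.98), Tlr7 to Ugt1a7c (0.92), Fbxo9 (0.92) and Abcd2 (0.91), and Cd14 to the chaperone gene Hspa5 (0.91), Plscr2 (0.91) and Rhoc (0.91). For Tlr4, Tlr6 and Tlr9 the nearest genes were Usp46 (0.84), Actr2 (0.85) and Rreb1 (0.85). Among the members, Tlr7 and Tlr8 had r = 0.88 over all libraries but 0.06 after group means were removed, and Tlr7 and Tlr13 had 0.83 and 0.48.

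Other genes of the TLR pathway were more often higher than lower in FF macrophages given PCN. Of 65 tested genes from 6 lists, 15 rose and 4 fell (median log2 0.09, beside 0.01 over all tested genes, of which 6.81% were called higher and 6.98% lower). Of 12 coreceptor and trafficking genes, 2 fell and 1 rose. Both that fell encode parts of a surface complex that restrains TLR4: Cd180, which encodes RP105, was at 115 ± 4.85 CPM in FF_PCN and 170 ± 2.61 CPM in FF_DMSO (log2 -0.54, SE 0.06, adjusted p = 6.57e-06), and Ly86, which encodes its partner MD-1, at 12.4 ± 1.59 CPM in FF_PCN and 18.3 ± 1.93 CPM in FF_DMSO (log2 -0.54, SE 0.12, adjusted p = 0.00414). Slc15a4, an endolysosomal transporter needed for TLR7 and TLR9 signalling, rose to 147 ± 7.72 CPM in FF_PCN, against 128 ± 2.44 CPM in FF_DMSO (adjusted p = 0.0261). Of 5 tested adaptors 1 rose, Ticam1, at 44.2 ± 2.51 CPM in FF_PCN and 33.8 ± 1.61 CPM in FF_DMSO (adjusted p = 0.00177).

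Of 16 kinases and ubiquitin ligases, 4 rose and 1 fell. Irak2, Chuk, Tbk1 and Traf6 rose by 1.18-fold, 1.22-fold, 1.18-fold and 1.24-fold. Ikbke, which encodes a kinase of the interferon branch, fell to 23.4 ± 0.951 CPM in FF_PCN, against 40.2 ± 0.958 CPM in FF_DMSO (log2 -0.76, SE 0.09, adjusted p = 4e-06). Of 10 transcription factor genes, Atf3 rose 1.43-fold and Irf5, a factor of TLR7 and TLR9 signalling, fell to 0.780 of its DMSO level (adjusted p = 0.000698). Negative regulators rose in 4 of 14, with Dusp1 up 1.60-fold, Tollip 1.40-fold, Tnfaip3 1.27-fold and Rab7b, a small GTPase that sends TLR4 and TLR9 to lysosomes, 1.14-fold. Output genes rose in 4 of 8 tested, Ptgs2 by 1.69-fold, Ccl3 by 1.65-fold, Cxcl2 by 1.35-fold and Tnf by 1.31-fold.

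In dMye macrophages given PCN, 7 of the 65 pathway genes rose and 1 fell (median log2 0.01, beside -0.01 over all tested genes, of which 0.94% were called higher and 1.14% lower). Ikbke fell here too, to 43.2 ± 3.75 CPM in dMye_PCN, against 55.6 ± 4.75 CPM in dMye_DMSO (log2 -0.36, SE 0.06, adjusted p = 0.0015), and Traf6 and Tollip rose 1.15-fold and 1.16-fold. The others that rose were Ptgs2 (1.27-fold), Tnfaip3 (1.16-fold), Ccl3 (1.15-fold), Atf3 (1.15-fold) and Dusp1 (1.14-fold). Cd180 was among the 4 pathway genes whose PCN effect differed between genotypes (difference 0.37, SE 0.08, adjusted p = 0.0208), with Dusp1 (-0.48), Ccl3 (-0.52) and Atf3 (-0.32) in the other direction. Dusp1, Ccl3 and Atf3 rose under PCN in both genotypes, but less in dMye than in FF. For this difference, 0.746% of all tested genes were called higher, 0.671% lower and 1.42% either way. Between genotypes, 10 pathway genes were higher and 12 lower in dMye under DMSO, and 8 were higher and 26 lower under PCN, of 65 tested. Over all tested genes, 13.9% were higher and 7.84% lower under DMSO, and 16.2% higher and 11.4% lower under PCN. Cd180 was at 126 ± 9.44 CPM in dMye_DMSO and 170 ± 2.61 CPM in FF_DMSO (log2 -0.46, SE 0.05, adjusted p = 1.43e-06). Under PCN, Ikbke was at 43.2 ± 3.75 CPM in dMye_PCN and 23.4 ± 0.951 CPM in FF_PCN (log2 0.84, SE 0.08, adjusted p = 2.45e-08), and Cd36, a scavenger receptor that can pass ligands to TLR2 with TLR6, at 2269 ± 118 CPM in dMye_PCN and 2984 ± 96.5 CPM in FF_PCN (log2 -0.44, SE 0.06, adjusted p = 2.92e-06). Ptgs2, which encodes the inducible cyclooxygenase, was at 21.1 ± 2.19 CPM in dMye_DMSO and 3.30 ± 0.213 CPM in FF_DMSO (6.26-fold, adjusted p = 7.23e-14). Mesothelial and fibroblast markers were also higher in dMye for 8 of 8 genes under either agent, and sex followed genotype. Their part in these genotype differences was not tested.

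**Figure D5:**
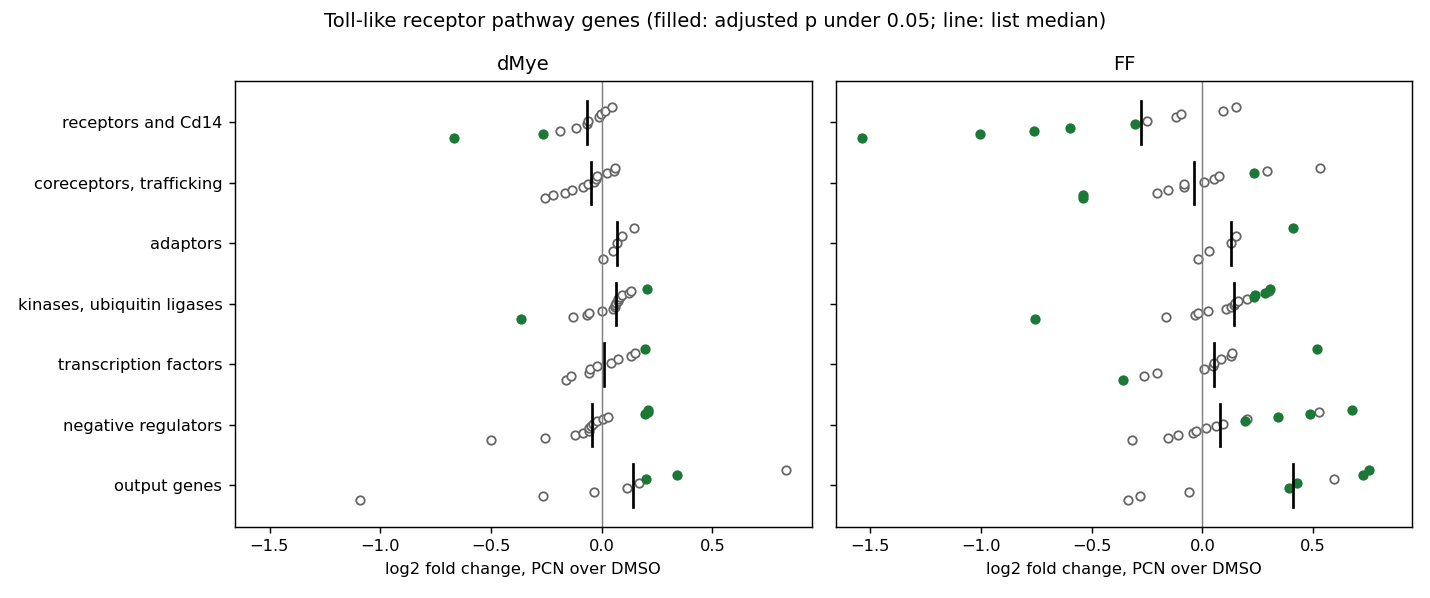
Log2 fold change of PCN over DMSO for the 10 members and 65 pathway genes by list, dMye on the left and FF on the right, 1 point per gene, filled where the adjusted p was under 0.05, with a line at each list's median. In FF the receptors lie mostly below 0 and the output genes mostly above it, with a median of 0.41 for the output genes and -0.28 for the receptors.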

How the data were processed

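Total RNA of cultured peritoneal macrophages was sequenced. The authors deposited expected counts per gene symbol, which are estimates and may hold decimals. The genome was mm10, per the submitters' processing notes. Aligner, quantifier, annotation and strand use: not given in the sources used here. Expected counts were rounded to whole numbers, and genes were kept by edgeR's filterByExpr (13411 of 21831, with 3171 at 0 throughout). One model (edgeR 4.0.16 in R 4.3.3, quasi-likelihood, robust, no covariates) held all 18 libraries in 4 groups and gave the 5 contrasts. TMM factors were 0.967 to 1.04. The script was tested on simulated data. CPM used column totals, and exon lengths and coordinates came from GENCODE M21. Replicates differed beyond sampling noise (chi-square per gene of 3.75 to 43.7), so none was merged. A count of 3 corresponds to 0.0992 to 0.136 CPM, for counting error only. Named genes were all members, genes from among up to 5 called genes of each pathway list by smallest p, and genes from among the 3 of highest r per member. Between genotypes, only some of the eligible pathway genes are named. The settings varied were the scaling (RLE, upper quartile), the filter (none, or 1 CPM in 3 libraries), the tool (DESeq2 1.42.0, limma-voom 3.58.1), the libraries fitted (compared groups alone, each library left out) and, chosen after seeing the data, dMye_DMSO 5 and 6 both left out and Tlr1 summed with Tlr6. The members and lists were chosen with earlier results of these data known. A further allele that all groups share, controls included, and a gene among those of highest r are not reported here.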

Additional observations from a re-analysis of the deposited data

Results flagged for a closer look

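Tlr8 and Tlr1 were the members whose PCN effect differed between the genotypes by the interaction test in edgeR. The difference (dMye minus FF) was 0.87 for Tlr8 (adjusted p = 0.00859) and 0.70 for Tlr1 (adjusted p = 0.0432). Across the 6 dMye_PCN libraries, Tlr1 stood apart in dMye_PCN 1, at 10.2 CPM, against 7.40 to 8.08 CPM in the other 5. Chance marks about 1 in 20 groups in this way, and 20 groups were examined. Without dMye_PCN 1 the adjusted p of the Tlr1 difference was 0.0654.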

How the results depend on the processing

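Under another scaling, filter, tool or set of libraries, 356 values of single members kept their direction and side of the threshold, 6 changed sign, 5 gained a call and 3 lost one. With 1 library left out, 499 did so, 15 changed sign, 4 gained a call and 22 lost one. Tlr8 kept its calls under PCN in both genotypes and for their difference under all of these. The number of members called lower under PCN in dMye was 2, and became 1 with the compared groups alone and without dMye_DMSO 5 and 6 (1 to 2 with 1 library left out). The number lower in dMye under DMSO was 2, and became 1 with upper-quartile scaling and 4 with DESeq2 (2 to 4 with 1 library left out). With 1 library left out, 3 to 5 members were higher in dMye under PCN, and 1 to 2 passed the test of the difference. Changes of direction were limited to results near 0. Under PCN in dMye, the log2 change became 0.00389 for Tlr6 without a filter, -0.00462 and -0.0211 for Tlr9 with upper-quartile scaling and limma-voom, and 0.0439 for Tlr1 without dMye_DMSO 5 and 6. Between genotypes under PCN it became 0.0371 for Tlr4 and 0.0138 for Tlr6 with upper-quartile scaling. With 1 library left out, the ranges that crossed 0 were -0.0370 to 0.00316 for Tlr4, -0.0299 to 0.0292 for Tlr6 and -0.130 to 0.0905 for Tlr9 under PCN in dMye, and -0.0360 to 0.00453 for Tlr4 and -0.0242 to 0.0324 for Tlr13 between genotypes under PCN. The cause was not tested. Over all genes, DESeq2 called 299 higher and 285 lower under PCN in dMye (edgeR 126 and 153), and 245 higher and 175 lower for the difference (edgeR 100 and 90). Leaving out 1 library gave 51 to 187 higher and 86 to 184 lower under PCN in dMye, and 28 to 158 higher and 14 to 103 lower for the difference (49 lower without a filter). Between genotypes, upper-quartile scaling called 668 lower under DMSO and 852 under PCN (TMM 1052 and 1525). With 1 library left out these were 590 to 1444 and 904 to 1682, and PCN in FF gave 522 to 699 higher (913 with all libraries). No paired analysis was possible because the labels give the groups no shared replicate numbers. Depth limits Tlr3, at 23 to 37 counts a library in FF_PCN.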
